A study of Homo sapiens and Mus musculus with 18 samples.

Results

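The ZNF genes of human chromosome 19 encode zinc-finger proteins. They were taken as the protein-coding genes on chromosome 19 whose symbol is ZNF followed by a number and at most 1 letter, which gave 245 of the 44910 genes in the human count table. They made up 17.8% of the 1377 protein-coding genes on the chromosome and 48.8% of the 502 genes of that symbol pattern in the genome. The rule used names and positions, with no measured value.

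RNA was sequenced from human embryonic stem cells (ESCs) and from RA-gastruloids, which are ESC aggregates patterned by CHIR99021, a WNT pathway activator, and retinoic acid (RA). There were 5 groups of 2 replicates. Naïve H9 ESCs had been chemically reset to a pre-implantation-like state in PXGL medium on mouse feeder cells that were then removed over passages, and primed H9 ESCs were grown in StemFlex on Geltrex. Primed RUES2-GLR ESCs, another line that carries germ-layer reporters, gave rise to early RA-gastruloids at 24 h and late RA-gastruloids at 120 h. Each state was sampled from 1 or 2 lines, medium changed together with state, and no RNA from H9 gastruloids was analysed here, so line, medium and state cannot be told apart where they change together. The replicates of a stage shared 1 experimental batch, so p-values measure the spread between those samples. Total counts ran from 3681739 in primed RUES2-GLR replicate 2 to 38771193 in primed H9 replicate 2.

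Most chromosome 19 ZNF proteins pair an array of C2H2 zinc fingers, which binds DNA, with a KRAB domain that recruits the corepressor TRIM28. TRIM28 in turn brings the histone methyltransferase SETDB1, which lays down H3K9 methylation, and many such proteins bind transposable elements. The genes arose by repeated local duplication and stand in clusters of related copies along the chromosome.

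Defining markers were read in each group before the ZNF genes. Naïve H9 libraries held all 6 naïve markers at or above 1 CPM, where CPM is the count scaled to a common library total, with a summed level of 5650 and 6080 CPM led by DNMT3L, and the same sum was 10.8 to 14.7 CPM in the primed libraries. Early RA-gastruloids held TBXT, TBX6, MSGN1 and CDX2, and late RA-gastruloids held PAX6, SOX1, MEOX1 and PAX3. Naïve H9 libraries also held all 4 trophoblast markers at 1 CPM or more, with sums of 319 and 364 CPM led by GATA2, against 5.81 to 11.2 CPM in the other 8 libraries, and VGLL1 was at 15.2 CPM in naïve H9 and 0 in both primed groups. The 8 fibroblast markers summed to 695 and 677 CPM in naïve H9, 303 and 313 CPM in primed H9 and 587 to 1130 CPM in the 6 RUES2-GLR libraries, led by COL1A1 or COL1A2. From naïve to primed H9, COL3A1 went from a mean of 176 to 0.0588 CPM, COL1A1 from 366 to 137 and TWIST2 from 9.56 to 4.61 CPM, and DCN and LUM, at 7.12 and 1.85 CPM in naïve H9, were at 0 in primed H9. COL1A2, at 121 and 133 CPM, and POSTN, at 2.47 and 1.36 CPM, differed less, and PDGFRB went the other way, from 0.913 to 32 CPM. The part of the trophoblast and fibroblast markers in the naïve results was not tested. In these bulk samples, fewer cells of a type and less RNA per cell cannot be told apart.

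The promoter windows that accompany the expression results come first. RefSeq (GRCh38.p14) gave a window of 300 bases, from 250 before to 50 after the start site, for 215 of the 245 genes, and 6 of them are printed with every CpG in capitals. ZNF257 and ZNF492 were detected in naïve H9 ESCs alone, whereas ZNF430, a gene of the same cluster, was detected in every group. ZNF558 was expressed in H9 but not detected in RUES2-GLR ESCs, ZNF296 fell from naïve to primed H9 and again in late RA-gastruloids, and ZNF146 had the highest level over the 5 groups. The windows lie at chr19:22052234-22052533 (plus strand), chr19:22634074-22634373 (plus), chr19:21020407-21020706 (plus), chr19:8832255-8832554 (minus), chr19:45076429-45076728 (minus) and chr19:36214856-36215155 (plus), and each is written 5′ to 3′ on the gene's strand.
ZNF257: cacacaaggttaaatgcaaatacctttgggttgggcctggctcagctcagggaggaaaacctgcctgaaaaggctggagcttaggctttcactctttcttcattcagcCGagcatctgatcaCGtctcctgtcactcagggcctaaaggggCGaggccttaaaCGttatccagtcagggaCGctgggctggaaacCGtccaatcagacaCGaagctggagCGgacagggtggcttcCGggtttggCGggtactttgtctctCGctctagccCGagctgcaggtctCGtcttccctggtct
ZNF492: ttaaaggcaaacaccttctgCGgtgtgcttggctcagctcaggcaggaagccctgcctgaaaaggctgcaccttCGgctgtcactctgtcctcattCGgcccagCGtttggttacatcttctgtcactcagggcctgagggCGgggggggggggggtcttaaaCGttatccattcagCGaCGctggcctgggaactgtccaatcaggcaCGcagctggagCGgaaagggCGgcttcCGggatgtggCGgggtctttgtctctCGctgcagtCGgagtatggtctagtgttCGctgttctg
ZNF430: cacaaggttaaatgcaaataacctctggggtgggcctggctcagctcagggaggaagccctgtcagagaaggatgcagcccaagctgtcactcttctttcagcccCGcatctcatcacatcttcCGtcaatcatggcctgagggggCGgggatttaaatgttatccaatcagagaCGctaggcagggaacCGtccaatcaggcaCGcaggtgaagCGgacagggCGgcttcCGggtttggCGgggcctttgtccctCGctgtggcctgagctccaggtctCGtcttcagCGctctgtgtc
ZNF558: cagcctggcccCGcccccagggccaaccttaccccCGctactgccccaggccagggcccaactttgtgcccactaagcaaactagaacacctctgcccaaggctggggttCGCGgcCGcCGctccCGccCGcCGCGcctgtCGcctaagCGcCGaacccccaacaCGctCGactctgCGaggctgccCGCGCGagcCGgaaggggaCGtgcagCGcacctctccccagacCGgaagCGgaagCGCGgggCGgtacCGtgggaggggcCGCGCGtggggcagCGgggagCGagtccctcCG
ZNF296: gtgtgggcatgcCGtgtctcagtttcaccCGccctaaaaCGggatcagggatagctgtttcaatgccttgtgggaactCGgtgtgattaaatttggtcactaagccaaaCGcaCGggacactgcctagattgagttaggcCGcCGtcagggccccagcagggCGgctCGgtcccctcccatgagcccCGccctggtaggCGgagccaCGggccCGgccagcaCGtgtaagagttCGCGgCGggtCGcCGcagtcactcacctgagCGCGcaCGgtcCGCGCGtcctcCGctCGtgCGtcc
ZNF146: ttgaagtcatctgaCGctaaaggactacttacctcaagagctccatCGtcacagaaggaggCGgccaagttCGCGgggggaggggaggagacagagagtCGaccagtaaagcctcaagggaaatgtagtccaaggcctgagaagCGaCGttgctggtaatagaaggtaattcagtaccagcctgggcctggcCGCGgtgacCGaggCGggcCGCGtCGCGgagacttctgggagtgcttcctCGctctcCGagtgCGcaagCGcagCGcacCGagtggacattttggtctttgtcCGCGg

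Aligned end to end, the ZNF257 and ZNF430 windows were 81.0% identical and held 13 CpG each. The ZNF492 window was 76.8% identical to that of ZNF257 and 74.8% identical to that of ZNF430. By contrast, the ZNF558 window, with 34 CpG, was 47.5% identical to that of ZNF257, close to the median of 49.2% between windows that shared no cluster.

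In the transcriptome as a whole, the chromosome 19 ZNF genes took their largest share of counts in naïve H9 ESCs. They held 0.509% and 0.497% of all counts in the naïve H9 libraries. The share was 0.296% and 0.301% in primed H9, 0.209% and 0.186% in primed RUES2-GLR, 0.227% and 0.228% in the early and 0.264% and 0.282% in the late RA-gastruloid libraries. The naïve pair stood above every other library, and primed RUES2-GLR replicate 2, the shallowest library, was lowest. On CPM scaled by TMM normalization, the summed level was 5395 ± 62.4 (SD, n = 2) in naïve H9, 2729 ± 74.2 in primed H9, 2310 ± 175 in primed RUES2-GLR, 2180 ± 3.87 in the early stage and 2512 ± 21.7 in the late stage. The median gene was also highest in naïve H9, with 2.41 RPKM, that is CPM per kilobase of exon, and stood at 0.919 RPKM in primed H9, 0.844 in primed RUES2-GLR, 0.771 in the early stage and 0.994 in the late stage. The order of the other 4 groups thus differed between the share of counts, the summed level and the median gene. In all, 165 of the 245 genes had their highest mean in naïve H9, 41 in late RA-gastruloids, 17 in primed H9, 14 in primed RUES2-GLR and 8 in early RA-gastruloids. The same count was not made over all genes.

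**Figure D1:**
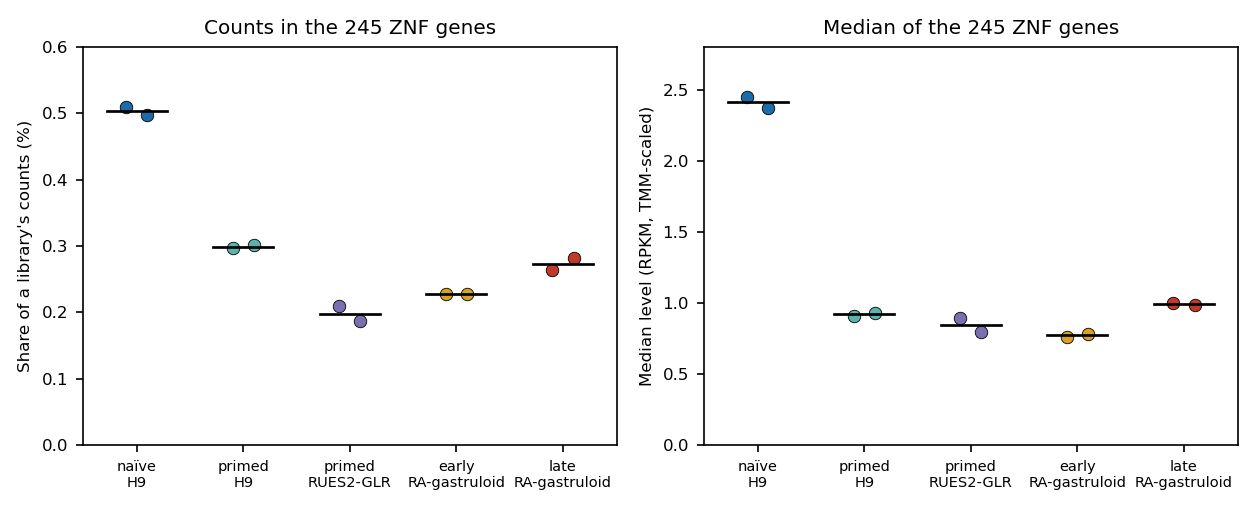
Share of each library's counts in the 245 ZNF genes, in percent (left), and the median of the 245 genes in TMM-scaled RPKM (right), by group. Each point is a library and each line the mean of 2; both naïve H9 libraries lie above all others on both scales.

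More ZNF genes were detected in naïve H9 than in any other group. With 1 CPM in both replicates as the threshold, 233 of 245 genes were detected in naïve H9, 199 in primed H9, 182 in primed RUES2-GLR, 184 in the early and 192 in the late stage of RA-gastruloids. A total of 173 genes were detected in all 5 groups and 10 in none. In naïve H9 alone, 29 genes were detected, against 1 in late RA-gastruloids alone and none in the remaining groups. At 0.5 and 2 CPM the naïve-alone count was 22 and 34. In primed RUES2-GLR replicate 2, 3 counts are about 0.815 CPM before scaling, so detection in that group rests on few counts. Detection was not counted over all genes or other gene sets. Whether these differences are particular to the ZNF genes was therefore not tested.

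The highest level per length over the 5 groups belonged to ZNF146, a protein made almost wholly of zinc fingers. ZNF146 (chr19:36214602-36238771, GRCh38) stood at 234 and 221 CPM in naïve H9, 167 and 169 in primed H9, 154 and 110.2 in primed RUES2-GLR, 172 and 173 in the early stage and 113 and 135 in the late stage. All 10 libraries held it above 100 CPM, and no comparison changed it by the 2-fold that a call required. The genes next in rank were ZNF581, ZNF428, ZNF787, ZNF296, ZNF358, ZNF579, ZNF574, ZNF317 and ZNF486. Of their exon length, 24.9% in ZNF581 and 32.1% in ZNF428 overlapped another gene, as did 10.8% in ZNF146, and counting used no strand. ZNF486 reached that rank through naïve H9, where its level was 38.4 RPKM against 3.75 RPKM or less elsewhere, while ZNF579 varied from 9.2 to 12 RPKM over the group means.

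The passage from naïve to primed H9 ESCs was examined first. Genes were called where the quasi-likelihood test of edgeR, Benjamini-Hochberg adjusted over 18300 genes, gave a p under 0.05 and the log2 fold change passed 1 in size. Of 238 ZNF genes that passed the filter on low counts, 117 were lower in primed H9 (49.2%) and 5 were higher (2.10%). Of the genes called, 10 had no count in primed H9 and 4 had 1 to 3 counts. Those genes passed the filter through naïve H9 and could only be called lower. Among all genes tested, 22.3% were called lower and 25.5% higher, 47.8% in all. The median log2 fold change was -1.0 for the ZNF genes and 0.00 for all genes. For the 884 other protein-coding genes tested on chromosome 19, 230 were lower and 170 higher with a median of -0.35, and for the 246 ZNF genes tested on other chromosomes, 47 were lower and 50 higher with a median of 0.05. Counting all 245 genes with no filter, both naïve replicates lay above both primed replicates in 189, below in 32, and overlapped in 24, whereas over the whole table these first 2 shares were 28% and 23%. The whole table holds many genes with few or no counts, and the same shares were 49.1% and 29.2% for the other protein-coding genes of chromosome 19 and 44.4% and 43.6% for ZNF genes elsewhere. The trophoblast marker sum moved with this comparison, at 319 and 364 CPM in naïve and 11 and 11.2 CPM in primed H9, and its part in it was not tested.

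Many genes with no or few counts in primed H9 lay in the cluster between ZNF101 and ZNF254. ZNF729 (chr19:22286441-22317176) stood at 129.6 and 104 CPM in naïve H9 and had no count in either primed H9 library. The naïve level was at least 832-fold higher, taking 3 counts per primed library as the floor (edgeR adjusted p = 1.43e-23). In the RUES2-GLR samples, ZNF729 had 3 counts in all 6 libraries together, so naïve H9 did not overlap any other group. ZNF257 was similar, at 53.7 and 53.4 CPM in naïve H9 and with no count in primed H9, at least 381-fold higher in the naïve state (edgeR adjusted p = 1.69e-22). ZNF728 stood at 30.8 and 24.5 CPM and had none, at least 197-fold higher (edgeR adjusted p = 3.6e-19). These 3 genes had the lowest fitted values, but with no count in the lower group the fitted order is no order of measured folds. They passed the filter through naïve H9, so lower was the only call open to them.

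These 3 genes stood in a row of 9 consecutive ZNF genes that were detected in naïve H9 alone: ZNF208, ZNF257, ZNF676, ZNF729, ZNF98, ZNF492, ZNF99, ZNF723 and ZNF728, from 21932958 to 23003176 on chromosome 19. Their naïve means ran from 7.62 CPM in ZNF99 to 117 CPM in ZNF729 and summed to 343 CPM. ZNF676, at 61.5 and 61.7 CPM in naïve H9, had 1 count in primed H9, a ratio of 3470 with an exact 95% counting interval of 621 to 137000. ZNF208 had 2 counts there, with a ratio of 1040 (288 to 8620), and 20.5% of its exon length overlapped another gene. ZNF492, at 14.6 and 15.9 CPM, had no count in any of the other 8 libraries. In ZNF98, 52.5% of 50-base windows along its exons were unique in the genome, the lowest of all 245 genes, so its reads are the most uncertain, and in ZNF492 the share was 53.4%. It was 80.6% in ZNF729, 83.7% in ZNF676, 83.9% in ZNF208, 86.9% in ZNF99, 87.4% in ZNF723, 91.7% in ZNF728 and 95.2% in ZNF257. Another row of 4 lay in the cluster between ZNF175 and ZNF331, formed by ZNF880, ZNF528, ZNF534 and ZNF578 from 52369917 to 52516882. ZNF528 had 1 count in primed H9, and its ratio was 1220 (218 to 48300), an interval that overlaps those of ZNF676 and ZNF208. Both rows were picked out after their values were seen, as were the genes outside the naming rule.

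By position, 234 of the 245 genes fell into 9 clusters of 5 or more, split wherever the distance between start sites passed 1 Mb, and 11 lay outside them. The clusters depend on that distance, with 10 of 5 or more genes and a largest of 43 at 0.5 Mb, and 6 with a largest of 101 at 2 Mb, against a largest of 59 at 1 Mb. Of the 37 genes between ZNF101 and ZNF254 (cluster 4, chr19:19668796-24129968), 20 were lower and none higher in primed H9, and the cluster sum went from 1144 ± 24.9 CPM to 396 ± 4.71 CPM. The 20 include the row of 9 genes and ZNF726, which passed the filter through naïve H9 and could only be called lower. Cluster 3 (ZNF653 to ZNF791) had 15 of 21 tested genes lower with a median log2 fold change of -1.59, cluster 6 (ZNF565 to ZNF573) had 17 of 26 lower with -1.28, and cluster 8 (ZNF175 to ZNF331) had 23 of 39 lower with -1.31. Cluster 9 (ZNF628 to ZNF446), the largest with 59 genes, had 24 lower and 3 higher. Cluster 7 (ZNF575 to ZNF296) had 10 of 24 lower with a median log2 fold change of -0.92. Its sum was 408 ± 43.0 CPM against 121 ± 2.97 CPM, of which ZNF296 alone held means of 145.9 and 7.7 CPM. Cluster 5 (ZNF302 to ZNF792) had none of 5 lower, 1 higher and a median of -0.07. Cluster 2 (ZNF557 to ZNF846) had 4 of 14 lower with a median of -0.31, and cluster 1 (ZNF554 to ZNF77) had 1 of 4 lower with -0.88. Of all genes tested, 22.3% were called lower and 25.5% higher. The 28.6% called lower in cluster 2, the 25% lower in cluster 1 and the 20% higher in cluster 5 were near those shares. Differences between clusters were not tested.

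**Figure D2:**
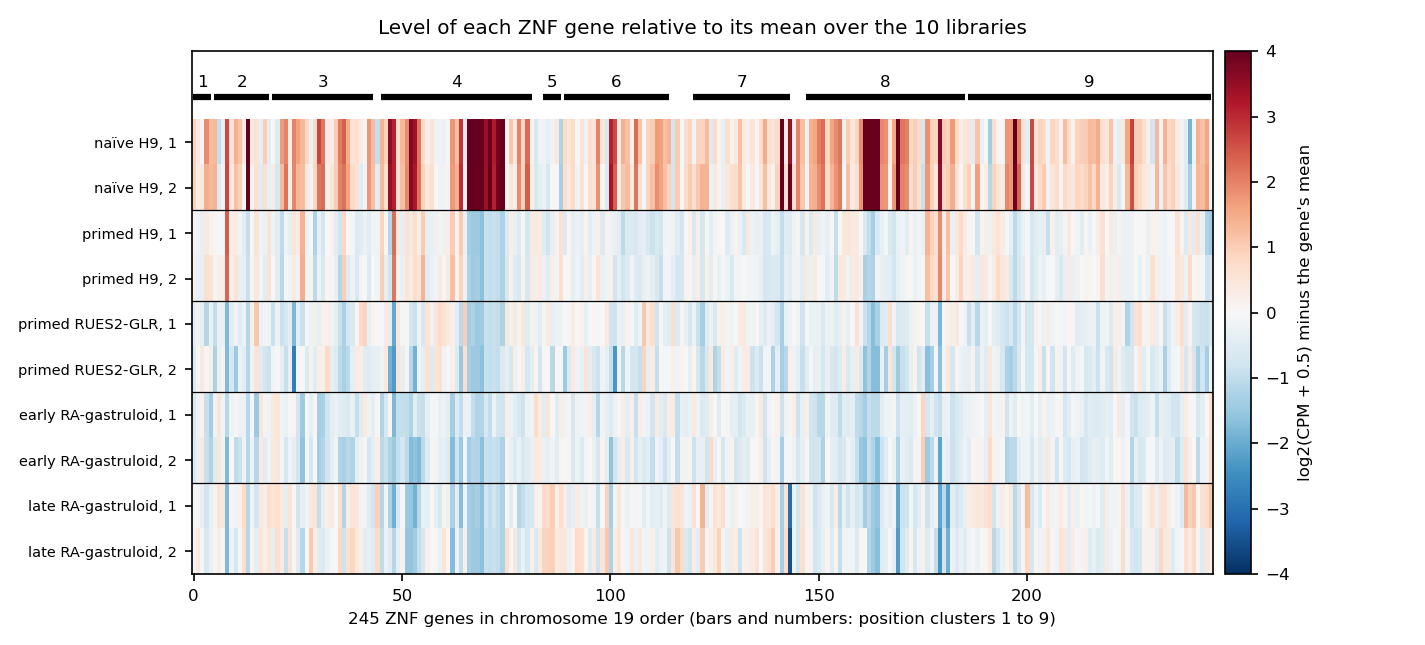
Level of each of the 245 ZNF genes (columns, in chromosome order) in the 10 libraries (rows), as log2(CPM + 0.5) minus the gene's mean over the libraries. Red is above and blue below the mean; the dark red blocks in the naïve rows of clusters 4 and 8 are the rows of 9 and 4 genes detected in naïve H9 alone.

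Genes known as repressors of transposable elements showed a range of sizes. ZNF534, which targets HERV-H elements, stood at 76.5 and 70.0 CPM in naïve H9 and 0.14 and 0.191 in primed H9 (log2 fold change -8.63 ± 0.23 (SE), edgeR adjusted p = 8.76e-24). The 2 naïve libraries were far above all 8 others, of which the highest was at 0.288 CPM. ZNF611, a regulator of SVA elements, fell from 17.7 and 20.6 CPM to 3.08 and 3.15 (-2.61 ± 0.18 (SE), edgeR adjusted p = 3.57e-14). ZNF808, known for binding MER11 elements and for its part in pancreas development, fell from 15.3 and 13.9 CPM to 2.87 and 2.88 (-2.34 ± 0.18 (SE), edgeR adjusted p = 7.73e-13). ZNF765 and ZNF649, which bind L1PA LINE-1 elements, also fell, with log2 fold changes of -1.77 ± 0.16 and -1.13 ± 0.11 (SE). The groups overlapped for none of these 5 genes.

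ZNF91, which binds SVA elements, and ZNF93, which binds L1PA elements, were not called. ZNF91 stood at 33.2 and 29.2 CPM in naïve and 20.6 and 17.6 CPM in primed H9 (log2 fold change -0.72 ± 0.14 (SE), edgeR adjusted p = 2.64e-05), a difference past the test but under the 2-fold limit. For ZNF93 the values were 35.7 and 34.3 and 27.9 and 24.3 CPM (-0.43 ± 0.12 (SE), edgeR adjusted p = 0.00243). ZNF417 and ZNF587, a near-identical pair that binds HERV-K, had log2 fold changes of -0.58 ± 0.20 and -0.52 ± 0.16. Of their 50-base windows, 66.0% and 73.3% were unique, so the split of reads between the pair is uncertain, and 33.2% of the ZNF587 exon length overlapped a gene on the opposite strand. ZNF274, which binds the 3′ ends of ZNF genes and recruits SETDB1, had -0.91 ± 0.14, and ZNF331, an imprinted gene, had -0.29 ± 0.13.

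ZNF296 and ZNF486 were among the abundant genes that fell. ZNF296, a pluripotency-associated zinc-finger gene, stood at 122 and 169.6 CPM in naïve H9 and 7.55 and 7.86 in primed H9 (-4.23 ± 0.16 (SE), edgeR adjusted p = 4.87e-21). ZNF486 stood at 165 and 163 CPM against 16.2 and 15.8 (-3.36 ± 0.13 (SE), edgeR adjusted p = 1.42e-20). Neither gene's groups overlapped. ZNF600 fell from 95.6 and 91.4 to 2.73 and 2.6 CPM (-5.14 ± 0.16 (SE), edgeR adjusted p = 6.74e-23).

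Only 5 genes rose, namely ZNF837, ZNF792, ZNF846, ZNF580 and ZNF418. ZNF837 went from 1.1 and 1.72 CPM in naïve to 7.13 and 9.27 CPM in primed H9 (2.58 ± 0.25 (SE), edgeR adjusted p = 8.03e-11). ZNF792 went from 2.09 and 1.89 to 8.53 and 9.24 CPM (2.16 ± 0.20 (SE), edgeR adjusted p = 5.74e-11), with no overlap between groups. ZNF846 rose less, from 1.41 and 1.49 to 3.29 and 3.24 CPM (1.16 ± 0.26 (SE), edgeR adjusted p = 0.000222).

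**Figure D3:**
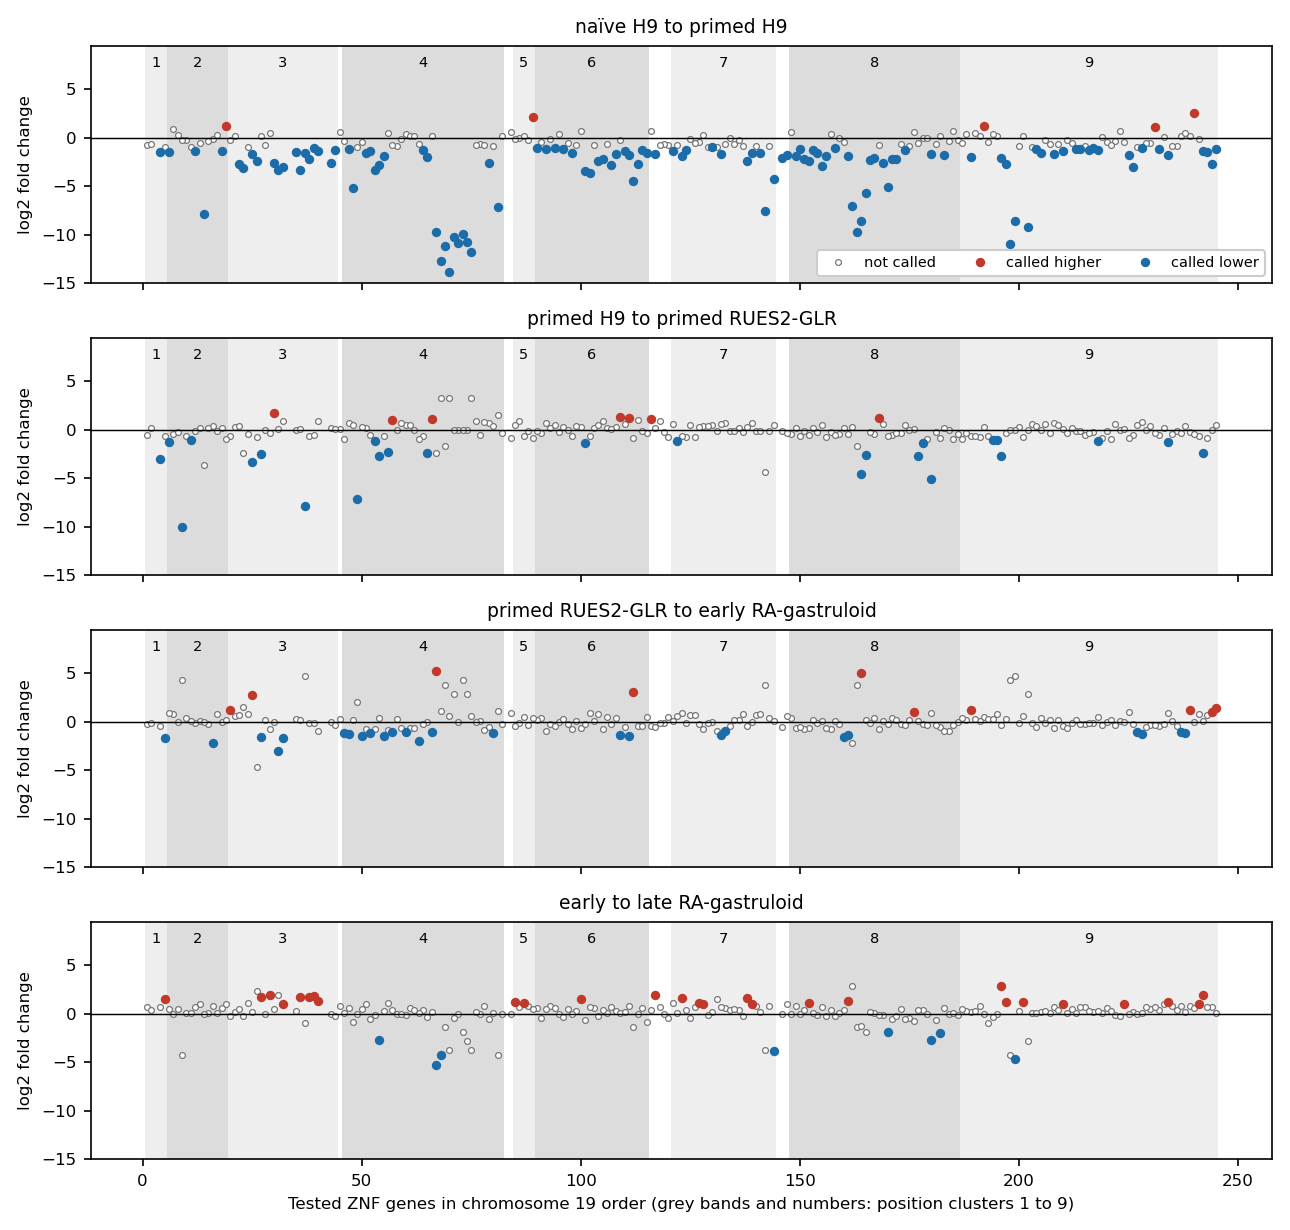
Fitted log2 fold change (edgeR) of each tested ZNF gene, in chromosome order, for the 4 comparisons; filled points were called higher (red) or lower (blue) and open points were not. In the top panel 117 points are blue and 5 red, with the lowest values in cluster 4; the lowest values, such as those of ZNF729, ZNF257 and ZNF728, rest on no or few counts in primed H9 and are not measured folds.

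The comparison of primed H9 with primed RUES2-GLR ESCs set the 2 lines side by side. In RUES2-GLR, 25 ZNF genes were lower (10.5%) and 7 higher (2.94%), against 12.2% and 17.1% of all genes tested, 29.3% in either direction. ZNF534, called lower, had 2 and 8 counts in primed H9 and none in RUES2-GLR ESCs. Its primed H9 level lay under the level of 3 counts per RUES2-GLR library, and no fold is given. Genes that passed the filter through naïve H9 included ZNF534, ZNF726, a row of 9 cluster 4 genes, ZNF560, ZNF229, ZNF528, ZNF667, ZNF471 and ZNF835. That row, ZNF726, ZNF528, ZNF667, ZNF471 and ZNF835 had at most 2 counts in any primed library, so no difference could be measured in them. The shares of ZNF genes called count them among the genes tested. The balance of higher and lower calls depended on the scaling. Under TMM the median of all genes was shifted by -0.12 and that of the ZNF genes was -0.15, and with DESeq2 size factors the medians were 0.00 and -0.01 and the calls 20 lower and 14 higher. Relative to all genes, the ZNF median was -0.028 under TMM. Without RUES2-GLR replicate 2 the calls were 12 higher, and without replicate 1 they were 15 lower.

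A few single genes differed between the lines by far more. ZNF558, which represses the mitophagy gene SPATA18, stood at 8.6 and 8.15 CPM in primed H9 and had no count in either RUES2-GLR ESC library. It was at least 13.9-fold higher in H9 (edgeR adjusted p = 1.59e-11). Naïve H9 also held it, at 9.93 and 10.4 CPM, while early RA-gastruloids had 3 counts in all and late RA-gastruloids none, so all 4 H9 libraries lay above all 6 RUES2-GLR ones. ZNF253 showed the same split by line, at 20.5 and 20.4 CPM in naïve H9, 11 and 10.2 in primed H9 and at most 0.612 CPM in any RUES2-GLR library. With a single count in RUES2-GLR ESCs, the ratio of primed H9 to RUES2-GLR was 160 with an exact 95% counting interval of 28.6 to 6330 (edgeR adjusted p = 8.15e-13). ZNF563 was at 1.68 and 1.95 CPM in primed H9 and had no count in RUES2-GLR ESCs, at least 3.02-fold higher in H9 (edgeR adjusted p = 5.65e-06). Intervals and floors cover counting error alone.

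In the other direction, ZNF569 and ZNF83 were higher in RUES2-GLR. ZNF569 stood at 12.7 and 13 CPM in primed H9 and 34.1 and 29.9 in RUES2-GLR (1.34 ± 0.16 (SE), edgeR adjusted p = 1.07e-08). It then fell to 14.5 and 10.6 CPM in early RA-gastruloids (-1.37 ± 0.17 (SE), edgeR adjusted p = 2.98e-08). RUES2-GLR ESCs were above all 8 other libraries. ZNF83 was at 8.46 and 9.36 CPM in primed H9 and 21.8 and 18.5 in RUES2-GLR (1.20 ± 0.17 (SE), edgeR adjusted p = 3.56e-07). ZNF433, at 0.559 and 0.667 and 2.38 and 1.27 CPM, was also called (1.72 ± 0.39 (SE), edgeR adjusted p = 0.00036), but without RUES2-GLR replicate 1 the adjusted p was 0.316, and 15.7% of its exon length overlapped another gene.

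**Figure D4:**
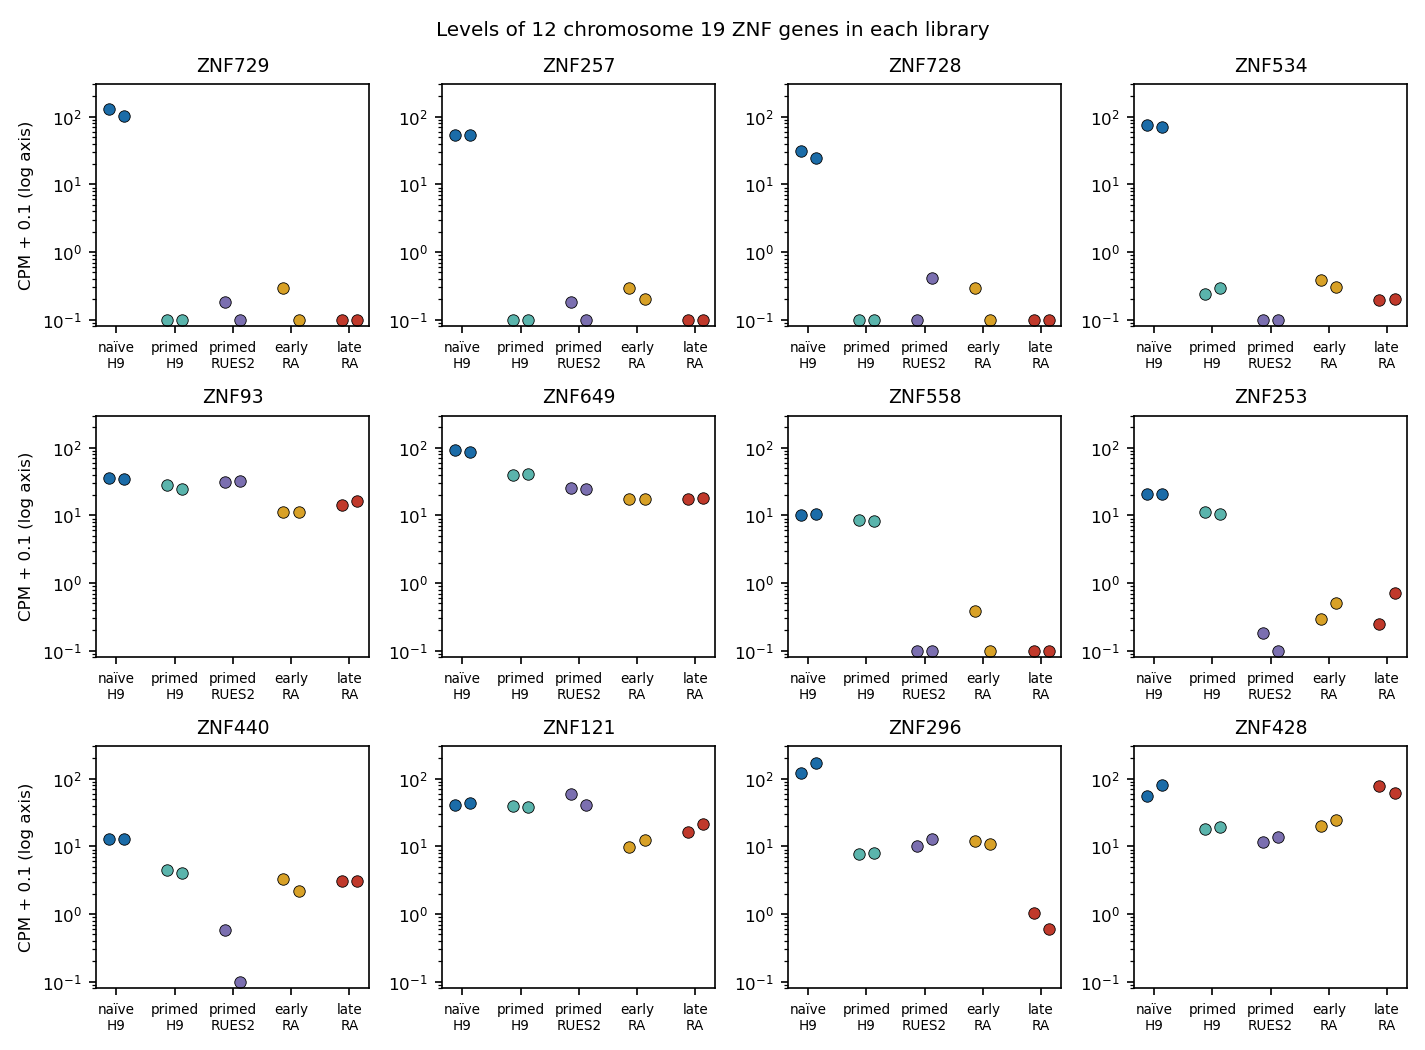
Level of 12 ZNF genes in each library, as CPM + 0.1 on a log axis; each point is a library, and the lowest position, 0.1, is a count of 0. ZNF729, ZNF257, ZNF728 and ZNF534 are high in naïve H9 alone, and ZNF558 and ZNF253 are high in the 4 H9 libraries.

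At the step from RUES2-GLR ESCs to the early RA-gastruloid, 25 ZNF genes fell (10.5%) and 10 rose (4.2%), against 17.6% and 12% of all genes tested, 29.6% in either direction. The median log2 fold change was -0.07 and that of all genes 0.08. Single libraries moved the ZNF median, which was 0.026 without RUES2-GLR replicate 1, -0.17 without RUES2-GLR replicate 2, -0.19 without early replicate 1 and 0.013 without early replicate 2. ZNF121 fell the most among abundant genes, from 59.5 and 40.5 CPM to 9.71 and 12.3 (-2.24 ± 0.17 (SE), edgeR adjusted p = 1.83e-12). Both early libraries lay below all 6 ESC libraries. ZNF493 went from 6.06 and 6.05 to 1.73 and 1.21 CPM (-2.03 ± 0.30 (SE), edgeR adjusted p = 9.1e-07), and ZNF93, the L1PA binder, from 30.9 and 32.2 to 11.1 and 11 CPM (-1.51 ± 0.16 (SE), edgeR adjusted p = 1.07e-09). ZNF878, at 0.737 and 1.27 CPM in RUES2-GLR ESCs, had 1 count in each early library. Of the 25 genes that fell, 10 lay in cluster 4, where 37 were tested. Of the 37 tested, the row of 9 genes and ZNF726 were not among those that fell. These genes passed the filter on low counts through naïve H9. They had at most 1 count in either RUES2-GLR ESC library, so no fall could be measured in them. The cluster 4 sum was 425 ± 46.2 CPM in RUES2-GLR ESCs and 252 ± 7.06 CPM in early RA-gastruloids.

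The rises in early RA-gastruloids were fewer and less firm. ZNF440 rose from 0.491 and 0 CPM to 3.17 and 2.12 (2.75 ± 0.52 (SE), edgeR adjusted p = 3.64e-05). Primed H9 held 4.33 and 3.91 CPM of ZNF440. ZNF446 (2.21 and 3.19 to 5.96 and 6.86 CPM; 1.39 ± 0.34 (SE), edgeR adjusted p = 0.000843) and ZNF497 (1.23 and 0.956 to 2.4 and 3.03 CPM; 1.21 ± 0.43 (SE), edgeR adjusted p = 0.017) shared 53.5% and 52.3% of their exon length with another gene, and counting used no strand. Without RUES2-GLR replicate 1 their adjusted p-values were 0.183 and 0.175, and ZNF497 also lost its call in DESeq2 and without early replicate 2. For ZNF534 and ZNF208, which were also called higher, both groups lay at or under the floor of 3 counts a library, and no fold is given. Without RUES2-GLR replicate 2 the number of rises was 6, and DESeq2 called 4.

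From early to late RA-gastruloids, between 24 h and 120 h, 27 ZNF genes rose (11.3%) and 8 fell (3.36%), against 11.8% and 13.2% of all genes tested, 24.9% in either direction. The share that rose was thus near that of all genes, and the median was 0.23 against 0.00. Of the falls, ZNF208, ZNF257 and ZNF471 passed the filter through naïve H9 and had at most 6 counts in any early or late library. Without early replicate 1 the ZNF median was 0.40. The ZNF genes on other chromosomes gave 33 rises, 7 falls and a median of 0.39, and the other protein-coding genes of chromosome 19 gave 46 rises, 161 falls and a median of -0.14. Counting all 245 genes, both late replicates were above both early ones in 114 (46.5%) and below in 33 (13.5%), against 19.8% and 18.6% over the whole table, 22.3% and 33.4% for the other protein-coding genes of chromosome 19 and 61.1% and 10.9% for ZNF genes elsewhere.

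The rises included ZNF428 and ZNF780B. ZNF428, of whose exon length 32.1% overlapped a gene on the opposite strand, went from 20.2 and 24.2 CPM in early to 77.4 and 61.9 in late RA-gastruloids (1.66 ± 0.16 (SE), edgeR adjusted p = 1.79e-10). It had also been high in naïve H9, at 54.7 and 79.8 CPM, so the naïve and late libraries overlapped and lay above the other 6. ZNF780B rose from 3.84 and 3.94 to 12.3 and 17.5 CPM (1.90 ± 0.22 (SE), edgeR adjusted p = 1.12e-08), and ZNF302 from 15.4 and 17.6 to 37.3 and 40.4 CPM (1.23 ± 0.14 (SE), edgeR adjusted p = 1.1e-08). ZNF302 was highest in late RA-gastruloids of all groups. ZNF763 and ZNF799 rose at low levels, to 1.21 and 2.14 CPM and 2.23 and 2.85 CPM, and 70.0% of the 50-base windows of ZNF799 were unique. The rises lay across clusters, with 8 of 59 (13.6%) in cluster 9, 7 of 21 (33.3%) in cluster 3 and 5 of 24 (20.8%) in cluster 7. There were 2 of 5 (40%) in cluster 5, 1 of 4 (25%) in cluster 1 and 2 of 39 (5.13%) in cluster 8. Cluster 6 had 1 of 26 (3.85%), and none rose of 14 in cluster 2 or 37 in cluster 4. Of all genes tested, 11.8% rose, and the share in cluster 9 was near that. These differences between clusters were not tested. In cluster 4, however, the row of 9 genes and ZNF726 had at most 6 counts in any early or late library, too few to be set against the share of all genes.

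Among genes with at least 1 CPM, the falls were led by ZNF296. It stood at 9.91 and 12.7 CPM in RUES2-GLR ESCs, 11.8 and 10.6 in the early stage and 0.921 and 0.51 in the late stage (-3.83 ± 0.28 (SE), edgeR adjusted p = 6.98e-13). Both late libraries were the lowest of all 10. The pluripotency factor POU5F1 went from a mean of 249 CPM to one of 0.5 CPM over the same step. ZNF525 fell from 12 and 10.9 to 2.67 and 3.26 CPM (-1.99 ± 0.20 (SE), edgeR adjusted p = 5.07e-10). ZNF600 fell from 1.63 and 1.11 to 0.388 and 0.306 CPM, on 17 and 11 counts in early and 8 and 3 counts in late libraries. For ZNF257 and ZNF471, both called, the groups lay at or under the floor. ZNF208, also called lower, had 6 counts in early replicate 1 and none in early replicate 2 or either late library. The number of falls was 4 without early replicate 1 and 5 without late replicate 2.

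Replicates of a group also differed in their cluster sums, with no test of these differences. In late RA-gastruloids, cluster 4 summed to 254 CPM in replicate 1 and 329 CPM in replicate 2, while cluster 9 summed to 802 and 684 CPM. In primed RUES2-GLR the sums of replicates 1 and 2 were 457.5 and 392.2 CPM for cluster 4, 357 and 280.1 CPM for cluster 6 and 604 and 607 CPM for cluster 9. The median size of the difference between replicates was 0.236 on the log2 scale for late RA-gastruloids, 0.155 for early RA-gastruloids, 0.277 for RUES2-GLR, 0.126 for primed H9 and 0.136 for naïve H9. Low depth adds counting error to such differences, and its part in them was not tested. Set against counting error, the chi-square per degree of freedom between replicates, over ZNF genes with 20 or more counts, was 4.89 in naïve H9, 4.51 in late RA-gastruloids, 1.78 in primed H9, 1.65 in RUES2-GLR and 1.21 in early RA-gastruloids, a measure that itself grows with depth.

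A list of 24 genes covered TRIM28, chromatin and DNA methylation factors that act with it, and ZFP57, itself a KRAB zinc-finger gene. TRIM28 itself was at 2458 and 2746 CPM in naïve H9, 1591 and 1674 in primed H9, 815 and 930.3 in RUES2-GLR, 1167 and 1118 in the early stage and 1151 and 892 in the late stage. It was highest in naïve H9 and not called (log2 fold change -0.67 ± 0.11 (SE), edgeR adjusted p = 2.14e-06 from naïve to primed H9). From naïve to primed H9, 2 of the 24 rose, CBX5 (2.64 ± 0.12 (SE), edgeR adjusted p = 1.82e-18), which encodes the heterochromatin protein HP1α, and the histone chaperone gene RBBP7. A further 2 fell, MPHOSPH8, of the HUSH silencing complex, and ZFP57, which protects imprints and went from 24.3 and 22.4 to 0.769 and 0.453 CPM (-5.41 ± 0.29 (SE), edgeR adjusted p = 5.12e-17). Among all genes tested in that comparison, 25.5% rose and 22.3% fell, larger shares than 2 of 24. In RUES2-GLR against primed H9, 3 were lower, namely MORC2, DAXX and DNMT1, against 12.2% of all genes, and MORC2 alone of them was called under every scaling. CHD3, CBX1 and UHRF1 rose in early RA-gastruloids, against 12% of all genes. None was called from early to late, where 24.9% of all genes were. The medians of the list were 0.02, -0.32, 0.45 and 0.02 in the 4 comparisons.

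The promoter windows differed by cluster. The 29 windows of cluster 4 held a median of 10 CpG, the lowest of the 9 clusters, where the medians of the others ran from 16 to 26. The median of the 215 windows was 20, against 22 in 15628 other protein-coding genes and 24 in 215 ZNF genes elsewhere. Pairs of cluster 4 windows were 76.0% identical at the median over 406 pairs, against 49.2% over 19812 pairs that shared no cluster. Genes lower in primed than naïve H9 and the other tested genes had medians of 20 and 20.5 CpG. The 22 windows of genes detected in naïve H9 alone had a median of 20 CpG, the same as all 215. Within cluster 4, where 5 of the 11 such genes had a window, those 5 held a median of 13 CpG and the other 24 windows a median of 10. In the printed sequences, the ZNF257 and ZNF430 windows shared 81.0% of their bases and held 13 CpG each. ZNF430 stood at 9.99 and 7.96 CPM in RUES2-GLR ESCs, where ZNF257 had 1 count in all.

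**Figure D5:**
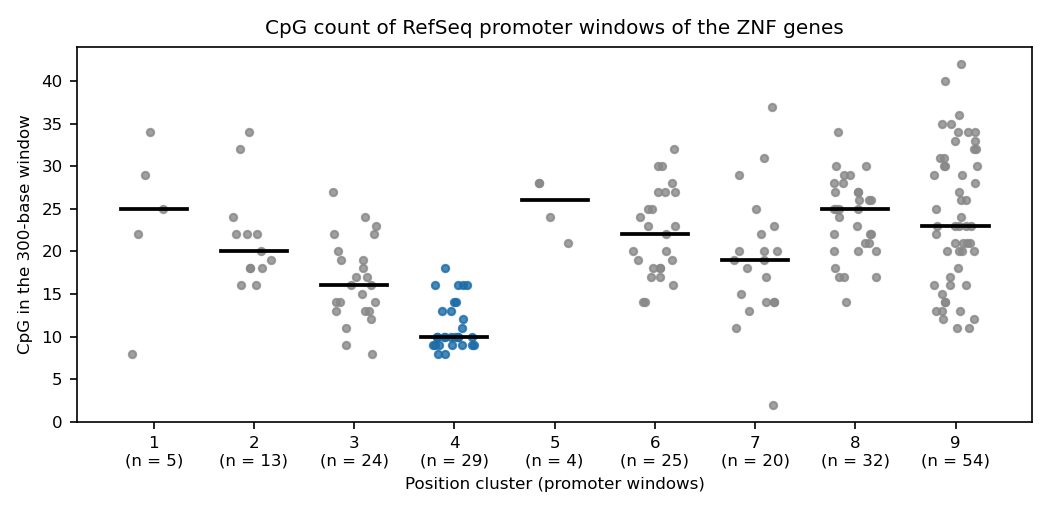
Number of CpG in the 300-base RefSeq promoter window of each ZNF gene, by position cluster; points are genes and lines medians. Cluster 4 (blue) has a median of 10, below the other clusters.

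Letters of 3 known motifs, none of which contains another, were searched for in the windows on both strands. The ETS motif CCGGAAGT was in 45 of 215 windows (20.9%), against 5.99% of other protein-coding genes and 14.0% of ZNF genes elsewhere, and 26 of the 45 were in cluster 9. The octamer ATGCAAAT, the POU-factor motif, was in 11 windows (5.12%), against 1.65% of other protein-coding genes and 2.33% of ZNF genes elsewhere, and all 11 were in clusters 3 and 4. It stood at bases 14 to 21 of the ZNF257 window. The same letters were at bases 12 to 19 in ZNF430. The SP/KLF motif GGGGCGGGG was in 24.2% of the windows and in 22.3% of those of other protein-coding genes and 20.5% of those of ZNF genes elsewhere. These matches describe the letters and no binding was measured.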

How the data were processed

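RNA-seq gene counts of the 10 human samples were analysed. Per the labels and the study's methods, the authors used Trimmomatic 0.39 for trimming and STAR for alignment to GRCh38, and deposited featureCounts counts of reads assigned to 1 gene, with no normalization and no use of strand. Runs were of 150 or 50 bases, not given per sample, and the annotation release is not given in the sources used here. Names came from GENCODE 44, where 244 of 245 genes had the same coordinates. Members and lists were chosen with earlier results of these data known.

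Counts were fitted with edgeR 4.0.16 (R 4.3.3) as 5 groups in 1 model, with TMM scaling, filterByExpr and quasi-likelihood tests adjusted over 18300 genes; the SE is the log2 fold change divided by the square root of F. The study compared transcripts too and lists DESeq2 among its packages without naming the test used for them, and the thresholds here are those it used for proteins. On simulated data for naïve against primed H9, with 16953 genes and 200 changed 4-fold, 200 were recovered with 3 false calls. The simulation gave every gene the same spread and, but for the changed genes, equal group means. Changes went up and down in equal number and were placed only in genes with expected counts well above the floor. It therefore does not bear on calls that rest on few counts or on a spread that differs between genes. CPM and RPKM are TMM-scaled. A total of 7 ZNF genes did not pass the filter. The floor was 3 counts per library, which is 0.0774 to 0.815 CPM unscaled. With 2 replicates a group, an exact permutation test cannot go below p = 0.333, so none was used. Text names the 3 largest rises and falls per comparison with at least 1 CPM, the 10 highest genes per length, 13 genes of known role, each cluster's highest gene and 24 genes of the TRIM28 pathway; other genes were named after their values were seen. Uniqueness is the share of exon windows found once in the genome. Promoter windows were aligned globally (match 1, mismatch -1, gap -2).

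Alternatives were other scalings, DESeq2 1.42.0, filters, call thresholds, a replicate block, single comparisons, each replicate left out, members overlapping another gene left out and, chosen after seeing the data, members under 90% unique left out.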

Additional observations from a re-analysis of the deposited data

How the results depend on the processing

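Across all alternatives run, the fall of ZNF genes from naïve to primed H9 kept its direction, and the number called lower was 113 to 126 with each replicate left out in turn. The number called higher there was 4 to 7, and 20 where the adjusted p alone made the call. The median log2 fold change there was -1.04 to -0.95 with a replicate left out, -1.11 with DESeq2 size factors in edgeR and in DESeq2, -0.97 with the stricter filter, -0.94 without genes overlapping another gene's exons and -0.90 without genes under 90% unique.

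From primed H9 to RUES2-GLR, the number called higher was 14 with DESeq2 size factors, with upper-quartile scaling and with only the 2 groups in the fit, 11 in DESeq2 and 31 by the adjusted p alone. The number called lower was 16 in DESeq2, 15 with only the 2 groups and 66 by the adjusted p alone. Leaving out a replicate gave 6 to 12 higher and 15 to 29 lower, with medians from -0.24 to -0.0046. The median was -0.0075 with DESeq2 size factors, 0.00 with upper-quartile scaling, -0.0036 in DESeq2 and 0.019 with only the 2 groups.

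From RUES2-GLR to early RA-gastruloids, the number called higher was 4 in DESeq2, 6 with no filter, 5 with only the 2 groups, 5 without overlapping genes and 31 by the adjusted p alone, and 50 were lower by the adjusted p alone. Leaving out a replicate gave 6 to 12 higher and 19 to 27 lower, with medians from -0.19 to 0.0261. The median was -0.18 with upper-quartile scaling and -0.21 with only the 2 groups.

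From early to late RA-gastruloids, the number called lower was 4 in DESeq2, 3 with only the 2 groups, 5 without genes under 90% unique and 17 by the adjusted p alone, and 73 were higher by the adjusted p alone. Leaving out a replicate gave 22 to 27 higher and 4 to 11 lower, with medians from 0.24 to 0.40. The median was 0.20 with DESeq2 size factors and in DESeq2, 0.28 with no filter, 0.23 with the replicate block, 0.26 with only the 2 groups, 0.21 without overlapping genes and 0.25 without genes under 90% unique. The cause of these shifts was not tested beyond what each alternative changes.

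Of 656 values for 60 named gene and comparison pairs under the alternatives, 609 were still called, 47 were not and none reversed. Of the pairs, 48 were called under every alternative. The others were ZNF446 and ZNF799 from naïve to primed H9, ZNF433, ZNF486, ZNF534, ZNF787, DAXX and DNMT1 between the primed lines, ZNF446, ZNF497 and ZNF534 in early RA-gastruloids, and ZNF257 in late RA-gastruloids. Where a replicate was left out, the lone sample was assumed to vary like the other groups. Same-numbered replicates did not deviate together (correlations from -0.112 to 0.068), so they share only a number, and the replicate block gave 118 lower and 5 higher, 27 and 7, 24 and 10, and 7 and 24 calls in the 4 comparisons. Primed RUES2-GLR replicate 2, with 3681739 counts, limits detection in that group to about 0.815 CPM at 3 counts.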

Other observations

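Outside the ZNF genes, chromosome 19 also stood at the low end in the naïve to primed comparison. The 884 other protein-coding genes tested there had a median log2 fold change of -0.35 in primed against naïve H9, the lowest of the 22 autosomes, and chromosome 16 was next at -0.16. From early to late RA-gastruloids the chromosome 19 median was -0.14 and the lowest but for chromosome 18 at -0.18. These medians are given with no test.

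Adjacent ZNF genes of a cluster had more similar profiles than other pairs. Over the 10 libraries, the correlation of log2(CPM + 0.5) had a median of 0.618 over 217 adjacent pairs of a cluster and 0.535 over 3819 other pairs of a cluster. It was 0.454 over 24167 pairs that shared no cluster, which include pairs with genes outside the clusters. Without naïve H9 the medians were 0.33, 0.162 and 0.0648. Members of a pair share libraries and depth, and close copies can share reads.

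The 50-base windows along the exons of the 245 genes were unique in the genome in 95.8% of cases at the median, and 11 genes were under 80%. With windows of 150 bases, the median was 100% and the lowest gene 77.6%. In 104 genes some exon length overlapped another gene, and in 37 more than 10% did.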
